A study of Mus musculus with 2 samples.

Results

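Chromatin accessibility was examined at 9 mouse genes that carry urea, water and sodium across membranes: the urea transporter genes Slc14a1 and Slc14a2, the aquaporin genes Aqp1, Aqp3 and Aqp4, the epithelial sodium channel genes Scnn1a, Scnn1b and Scnn1g, and Atp1b1, which encodes the beta 1 subunit of the Na,K-ATPase. They are 9 of the 21911 protein-coding genes compared here. They were listed by name for what they transport, with earlier results of these data known. Each locus was taken as the GENCODE M21 gene body with 10 kb on either side, on the mm10 build. DNase-seq, which maps sites where DNase I cuts DNA that is not covered by nucleosomes, was done on whole urinary bladder of adult female B6CASTF1/J mice (the F1 of C57BL/6 and CAST), aged 18 to 20 months. The 2 libraries form 1 group, biological replicates 1 and 2. The labels name no treatment, and there is no second tissue or genotype. The labels give the replicates separate tissue samples, both listed with the same donor record, and do not state how many animals these came from, so the spread between them may be technical.

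The bladder stores urine, whose urea and salt differ widely from those of blood, behind a tight epithelium, the urothelium. Urea crosses membranes through the facilitated carriers UT-B (Slc14a1) and UT-A (Slc14a2), and water through aquaporins. The epithelial sodium channel ENaC, built of alpha, beta and gamma subunits, lets sodium enter at the luminal side, and the Na,K-ATPase pumps it out at the basolateral side. An open promoter makes a gene accessible to the transcription machinery, and a DNase footprint is a short stretch inside an open region that is protected from cutting, as a bound protein would protect it. Accessibility is not a measure of RNA or protein. Intervals from counting, given below at 95%, are exact (Clopper-Pearson) and treat each step of the peak signal as 1 count, so they cover counting error only.

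Replicate 1 had 84591 peaks in its longer deposited list and replicate 2 had 112174, and the footprint lists held 176795 and 229390 footprints. Peak signal, the authors' value per peak, comes in whole steps of 0.00853 in replicate 1 and 0.00884 in replicate 2, and the median peak held 96 and 86 such steps. The total depth is unknown. Promoter peaks were found in both libraries at 14 of 14 urothelium markers, 8 of 8 smooth muscle markers, 6 of 6 fibroblast markers and 5 of 7 endothelium markers, with none at Pecam1 or Emcn. They were found at 3 of 8 kidney tubule markers, with none at Umod or Kcnj1, at 1 of 6 erythroid markers, with none at Hba-a1 or Hbb-bs, and at 5 of 5 astrocyte markers. The share over all protein-coding genes was 64.2%, which the endothelium count is near, and the astrocyte list was as complete as that of the urothelium. In whole tissue a low signal can come from few cells with an open site or from many cells with a partly open one, and these cannot be told apart.

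Of the 9 transport genes, replicate 1 showed a promoter peak, meaning a peak within 1 kb of any annotated start site, at 6, replicate 2 at 7, and both libraries at 6. Over all protein-coding genes the shares were 65.2%, 67.6% and 64.2%, so the count of the 9 is close to the background. The order of promoter signal was Scnn1g, Aqp3, Atp1b1, Slc14a1, Scnn1b and Aqp1, followed by Aqp4 with a peak in replicate 2 only, and Slc14a2 and Scnn1a with none. Between neighbours in this order only Slc14a1 and Scnn1b overlapped in their replicate values among the genes open in both libraries. The median promoter signal of the genes with a peak was 1.78 in replicate 1 and 1.91 in replicate 2, below the medians of 3.27 and 3.42 over all genes with a promoter peak. By their median the loci held peaks at a higher density: 1.29 and 1.18 peaks per 10 kb, against 0.573 and 0.766 over all protein-coding loci. Slc14a2 and Aqp4 lay below these medians in both libraries, and Aqp1 in replicate 2. A higher density was not particular to the 9 loci. Of the related lists counted below, FXYD regulators had medians of 1.73 and 1.96 and acid-sensing channels 1.37 and 1.37. The other related lists were below the 9 genes in both libraries, and all 68 related genes together had 0.789 and 1.02. By start site, 10 of the 34 annotated start sites of the 9 genes lay within 1 kb of a peak in both libraries.

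**Figure D1:**
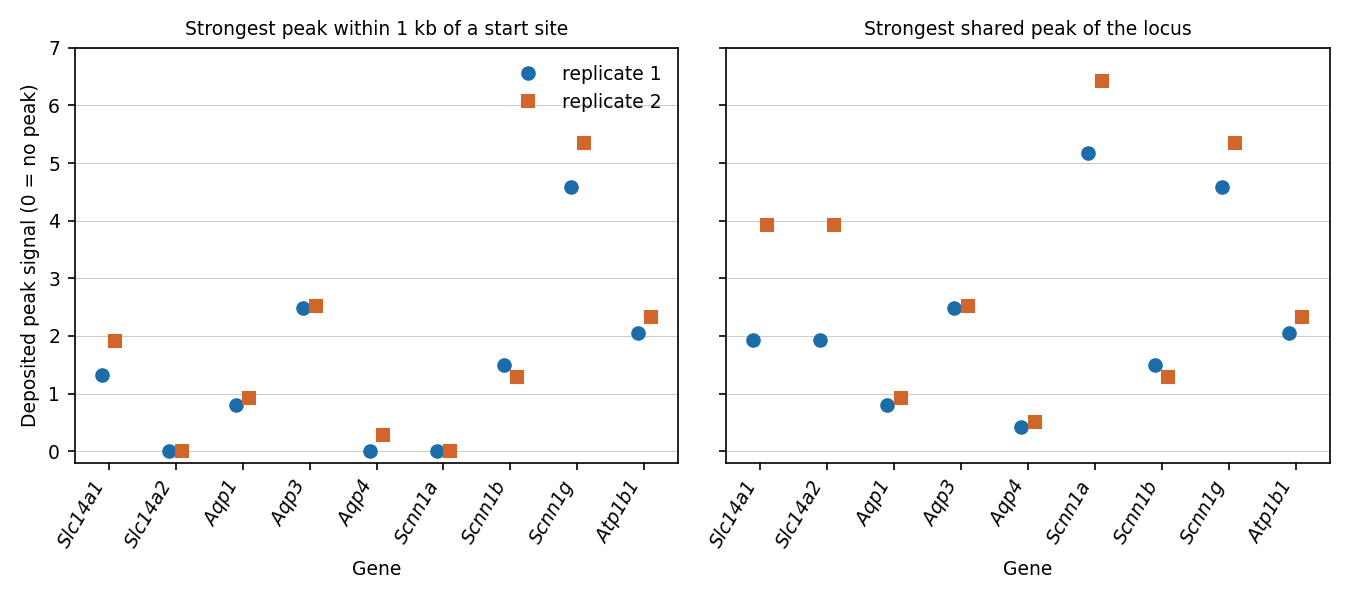
Peak signal of each gene in replicates 1 (circles) and 2 (squares), on the deposited linear scale. On the left is the strongest peak within 1 kb of a start site, with 0 for no peak, and on the right the strongest shared peak of the locus. On the right, the Slc14a1 and Slc14a2 points are the same peak, which lies inside Slc14a1. Scnn1g led on the left at 4.59 and 5.36, and Scnn1a, at 0 on the left, led on the right at 5.17 and 6.42.

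Among the water channels, Aqp3 was the most open and Aqp1 had a weak promoter. Aqp1, a constitutive water channel of vessels and many epithelia (ENSMUSG00000004655.5, chromosome 6, 55336432 to 55348555, plus strand), had 1 promoter peak across its start site, with a signal of 0.810 in replicate 1 and 0.928 in replicate 2, 0.869 ± 0.0833 (SD, n = 2). The only other peak of its locus was in an intron, at 0.537 and 0.504. Both peaks recurred at nearly the same signal, and the locus held 0.623 peaks per 10 kb in each library. The promoter sequence is shown to set a weak promoter beside the stronger ones that follow: 8 bases lay in footprints of both libraries, of 13 in replicate 1 and 20 in replicate 2. In the 200 bp window of the whole peak 17 did. Here and for the sequences that follow, letters are those of the GRCm38.p6 (mm10) reference on the plus strand, 5′ to 3′, cut to the part covered by the peaks of both libraries with untranslated exon bases left out, and capitals mark the bases inside footprints of both libraries. The mice also carry CAST alleles, and how these differ from the printed reference was not tested.
Aqp1, chr6:55336261-55336431: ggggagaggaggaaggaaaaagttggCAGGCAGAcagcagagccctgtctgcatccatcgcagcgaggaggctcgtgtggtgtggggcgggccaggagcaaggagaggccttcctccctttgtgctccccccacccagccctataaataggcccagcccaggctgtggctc

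Aqp3 encodes an aquaglyceroporin of basolateral membranes, which passes water and glycerol (ENSMUSG00000028435.8, chromosome 4, 41092722 to 41098183, minus strand). Its gene body of 5.46 kb held 3 peaks in both libraries, at 2 start sites and in the intron between them. The peak over the start of the protein-coding transcript had signals of 2.11 and 2.24, 2.18 ± 0.0918 (SD, n = 2). The peak near the start of a retained-intron transcript was slightly higher, at 2.48 and 2.52, 2.50 ± 0.0262. The intronic peak had 1.65 and 1.63. The values of the replicates therefore lay close together at each of the 3 sites. Another peak, outside the gene, was called in replicate 1 only, at 0.640. With protein-coding start sites alone, the Aqp3 promoter value was 2.18, inside the replicate range of Atp1b1.

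The 3 Aqp3 sequences are shown together to set their footprints side by side. The intronic and the protein-coding start sequence were chosen after their values were seen. In order, they are the start of the retained-intron transcript, the intron and the bases before the protein-coding start. The intronic stretch holds 20 adjacent bases that lay in footprints of both libraries, which called 41096417 to 41096440 and 41096421 to 41096444. In them stands TTGGC, 5 further bases, and GCCAA, the inverted arrangement of the NFI motif. Windows of 200 bp with this arrangement made up 0.0969% of all peaks in replicate 1 and 0.124% in replicate 2, and 1 of the 53 shared peaks of the 9 loci. This arrangement was looked for after the footprint had been read, and a match is not evidence of which protein bound. The printed part of the protein-coding start peak shared 9 footprint bases. That of the retained-intron start shared 6, but only 80 bases of this peak lie in the peaks of both libraries. In 200 bp windows on the peak centres, the order was 37 bases at the retained-intron start, 20 in the intron and 9 at the protein-coding start.
Aqp3, chr4:41094501-41094580: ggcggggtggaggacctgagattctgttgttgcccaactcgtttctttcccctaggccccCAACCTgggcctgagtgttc
Aqp3, chr4:41096321-41096540: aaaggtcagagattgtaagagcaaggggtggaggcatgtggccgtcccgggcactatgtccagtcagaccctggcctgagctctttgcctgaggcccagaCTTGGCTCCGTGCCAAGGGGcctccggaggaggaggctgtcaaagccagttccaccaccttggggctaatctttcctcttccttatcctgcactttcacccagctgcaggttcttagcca
Aqp3, chr4:41098184-41098320: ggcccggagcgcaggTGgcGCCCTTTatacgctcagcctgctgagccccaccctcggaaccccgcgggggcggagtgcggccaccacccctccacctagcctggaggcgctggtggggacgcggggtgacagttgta

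Of the 3 ENaC genes, Scnn1g had the strongest promoter of the 9 genes. Scnn1g encodes the gamma subunit (ENSMUSG00000000216.8, chromosome 7, 121734479 to 121768475, plus strand). Its promoter peak, 121734201 to 121734460, ended just before the start site and had signals of 4.59 in replicate 1 and 5.36 in replicate 2, 4.97 ± 0.543 (SD, n = 2). It ranked 5012 of 84591 peaks and 4321 of 112174. The lowest cut-rate false discovery rate that the authors deposited within 1 kb of the start was 5.54e-56 and 1.74e-61. Of the 14 distinct peaks of the locus 5 were found in both libraries, and the others had signals of at most 0.426 in replicate 1 and 0.645 in replicate 2. The strongest intronic peak, 121737501 to 121737920, had 1.75 and 1.61.

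The Scnn1g promoter carried the most footprint bases in common of the sequences shown here, 48 of 200, out of 69 and 70 bases in the single libraries. The last footprint, called at 121734406 to 121734420 and at 121734407 to 121734421, covers GGGGCGG, the GC box bound by KLF and SP factors, which begins at base 191 of the sequence. The intronic peak of the same gene is given below it for contrast: it had 6 footprints in replicate 1 and 5 in replicate 2, yet only 18 of 300 bases were in footprints of both. Peaks within 10% of its signal had a median of 3 footprints in each library. They were not matched for width, and this peak was 420 and 300 bp wide, against library medians of 199 and 188 bp.
Scnn1g, chr7:121734221-121734420: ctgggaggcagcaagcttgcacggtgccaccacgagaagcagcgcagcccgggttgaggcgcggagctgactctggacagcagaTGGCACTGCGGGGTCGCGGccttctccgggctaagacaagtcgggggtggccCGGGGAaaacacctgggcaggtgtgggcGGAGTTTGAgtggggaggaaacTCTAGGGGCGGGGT
Scnn1g, chr7:121737521-121737820: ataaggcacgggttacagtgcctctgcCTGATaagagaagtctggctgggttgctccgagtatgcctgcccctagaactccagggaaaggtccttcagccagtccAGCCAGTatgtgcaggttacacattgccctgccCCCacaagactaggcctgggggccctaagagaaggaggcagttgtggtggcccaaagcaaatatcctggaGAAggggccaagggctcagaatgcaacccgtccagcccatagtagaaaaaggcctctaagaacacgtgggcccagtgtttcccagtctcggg

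Scnn1a, the gene of the alpha subunit (ENSMUSG00000030340.16, chromosome 6, 125320659 to 125344943, plus strand), had no peak within 1 kb of any of its 7 annotated start sites, yet its locus held the strongest peak of all 9. No stretch with a cut-rate false discovery rate under 0.05 was listed within 1 kb of these start sites in either library. The nearest peak, 125318997 to 125319400, lay 1439 bp upstream of the first start site in replicate 1 and 1259 bp upstream in replicate 2, with signals of 1.15 and 0.910. With a promoter window of 2 kb it counted as the promoter peak of Scnn1a, at a mean of 1.03. The strongest peak, 125331061 to 125331260, was 9540 bp from the nearest start site and had signals of 5.17 and 6.42, 5.79 ± 0.883 (SD, n = 2), from 606 and 726 steps. It ranked 4079 in replicate 1 and 2736 in replicate 2 and so was stronger than 95.2% and 97.6% of the peaks of the libraries. A further peak, with its midpoint in untranslated exon sequence near the end of the gene, had 1.52 and 1.90.

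The strongest Scnn1a peak lay on the end of a coding exon, exon 2 of 12 in Scnn1a-201 and exon 3 of 13 in 4 other protein-coding transcripts. Of its bases 124 were in the exon, which ends at 125331184, and the rest in the intron behind it. The 200 bp window at its centre held 19 CpG dinucleotides, and its ratio of observed to expected CpG was above that of 93.8% of peak windows in replicate 1 and 95.1% in replicate 2. It had 2 and 3 footprints, fewer than the median of 4 and 5 in peaks within 10% of its signal. The sequence is shown as that of the strongest peak outside promoters. In it 2 footprints recurred with nearly the same ends: 125331102 to 125331118 and 125331101 to 125331117 for the first, 125331187 to 125331206 and 125331186 to 125331207 for the second. The second lay just inside the intron and covers a GC box on the minus strand, which begins at base 112. In all, 36 of the 37 footprint bases of replicate 1 lay in a footprint of replicate 2.
Scnn1a, chr6:125331081-125331260: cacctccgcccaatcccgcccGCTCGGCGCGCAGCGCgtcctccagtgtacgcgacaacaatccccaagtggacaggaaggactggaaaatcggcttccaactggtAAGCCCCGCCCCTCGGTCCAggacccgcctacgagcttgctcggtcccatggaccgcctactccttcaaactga

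Neighbouring genes added to the Scnn1a locus. The promoter of Ltbr, the lymphotoxin beta receptor gene, gave signals of 3.88 and 3.07, and that of Tnfrsf1a, a tumour necrosis factor receptor gene, gave 2.45 and 2.09. A peak inside Tnfrsf1a, 125354721 to 125354940, had 2.10 and 2.19. Without peaks at promoters of other genes the Scnn1a locus held 8 peaks in replicate 1 and 6 in replicate 2, in place of 10 and 12.

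Scnn1b, which encodes the beta subunit (ENSMUSG00000030873.9, chromosome 7, 121865038 to 121918514, plus strand), had a promoter peak of 1.501 in replicate 1 and 1.28 in replicate 2, 1.39 ± 0.155 (SD, n = 2). This value was below that of the neighbouring Scnn1g in both libraries. An alternative start site at 121899228 had a peak in replicate 2 only, at 0.680. The other 4 shared peaks of the locus ranged in mean signal from 0.550 to 0.723, and 1 of them lay at the promoter of Cog7. The promoter sequence is shown as that of the neighbour of Scnn1g, ends at the base before the start site and leaves out 103 bases of untranslated exon: 7 of its bases, TCCCCGC, lay in footprints of both libraries, and 20 in the 200 bp window of the whole peak.
Scnn1b, chr7:121864941-121865037: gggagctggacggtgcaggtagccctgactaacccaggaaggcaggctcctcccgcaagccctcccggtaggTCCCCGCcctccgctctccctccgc

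Atp1b1, whose product is needed to assemble and deliver the sodium pump to the membrane (ENSMUSG00000026576.12, chromosome 1, 164437109 to 164458355, minus strand), had 3 shared peaks within 1 kb of its start sites. The strongest, 164458261 to 164458500, covered the protein-coding start and had signals of 2.06 and 2.32, 2.19 ± 0.190 (SD, n = 2). The peak just inside the gene had 1.24 and 0.795, and that further upstream 0.682 and 0.716. After centring, the peak inside the gene was lower in replicate 2 (centred log2 ratio -0.78, 95% interval from counting -1.18 to -0.39), and the intervals of the other 2 included 0. The internal start sites at 164443719 and 164453777 had no peak within 1 kb in either library. The part of the strongest peak upstream of the gene is shown, and the 14 footprint bases of replicate 1 in it all recurred in replicate 2. In the 200 bp window of the peak 14 of 22 did. Its GC box at base 118 lay outside the footprints of both.
Atp1b1, chr1:164458356-164458500: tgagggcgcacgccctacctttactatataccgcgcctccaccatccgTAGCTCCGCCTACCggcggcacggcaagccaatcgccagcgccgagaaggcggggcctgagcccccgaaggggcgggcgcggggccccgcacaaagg

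**Figure D2:**
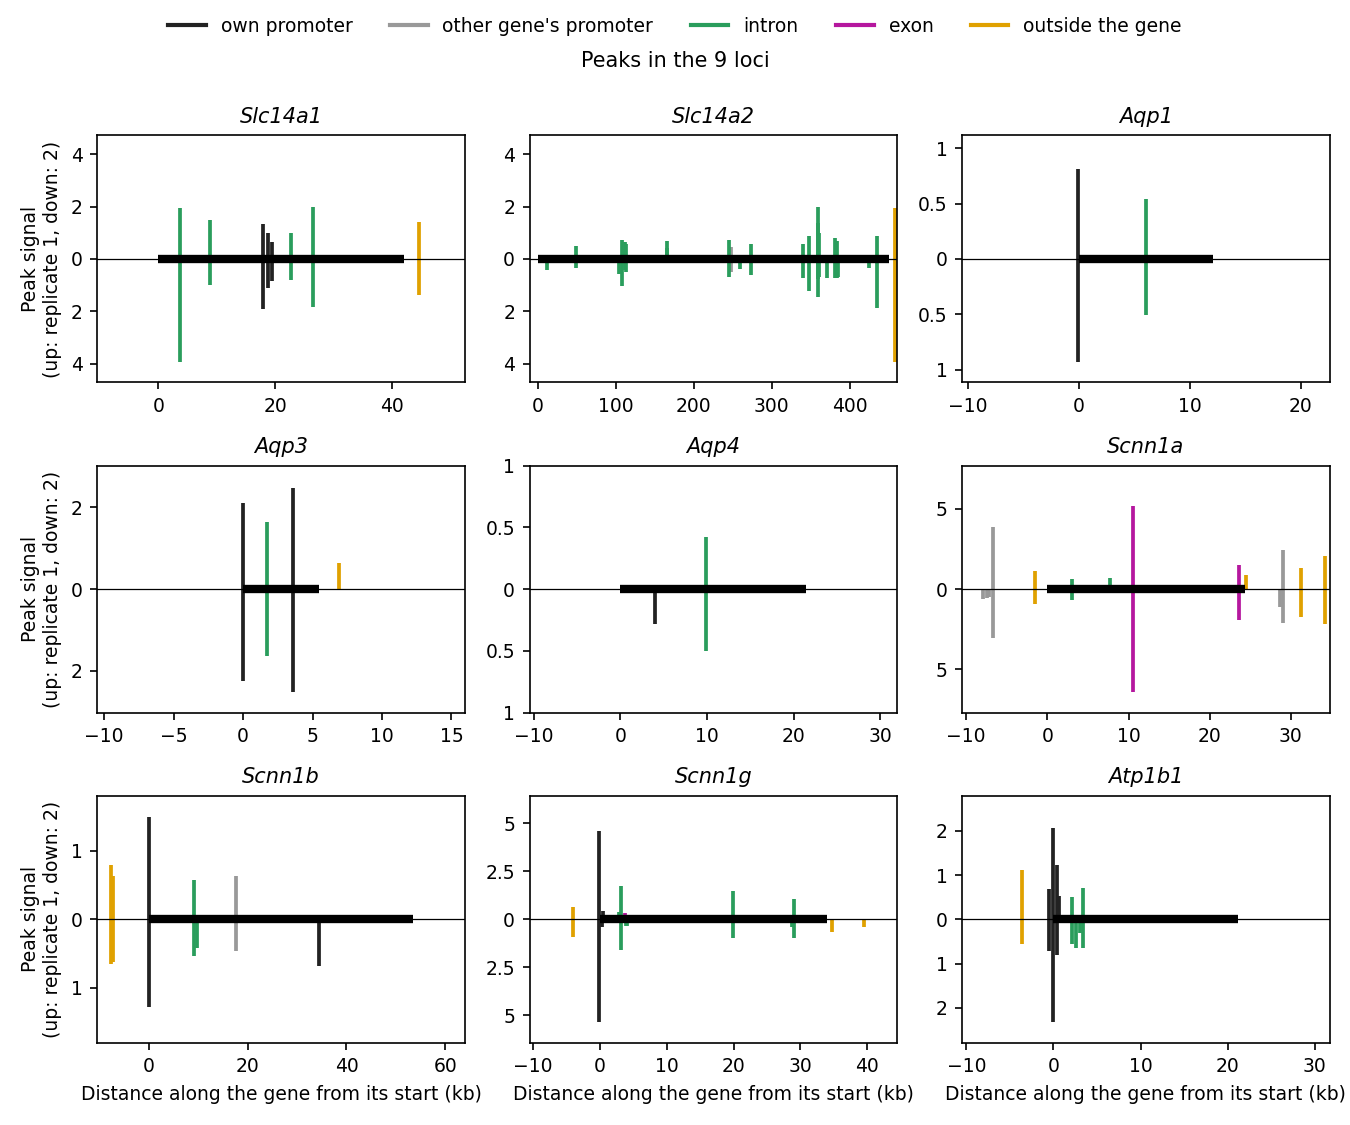
Peaks of the 9 loci by distance from the gene's first base in the direction of transcription (kb), with signal of replicate 1 upward and of replicate 2 downward on linear axes that differ between panels. The thick black bar is the gene body and line colour gives the position class. Aqp1, Aqp3, Scnn1b, Scnn1g and Atp1b1 have their strongest line near a start site, while the strongest line of Scnn1a, at 5.17 and 6.42, lies inside the gene, as do the Slc14a1 lines at 1.94 and 3.92 and at 1.98 and 1.82.

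The urea transporter genes are neighbours on chromosome 18 and differed at their start sites. Slc14a1 encodes UT-B, known from red cells, vessels and urothelium (ENSMUSG00000059336.14, 78100091 to 78142119, minus strand). It had 3 promoter peaks in both libraries, around the start sites at 78123331 and 78123426, the strongest with 1.33 in replicate 1 and 1.91 in replicate 2, 1.62 ± 0.409 (SD, n = 2). The peak that covers the first of these start sites had 0.998 and 1.11. The start site at 78142119, the most upstream one, had no peak within 1 kb in either library. All 8 peaks of the locus were found in both libraries, with no peak in 1 library only.

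By mean signal the strongest Slc14a1 peak was intronic, 78138361 to 78138560, and lay 3559 bp inside the gene from the upstream start site. Its signal was 1.94 in replicate 1 and 3.92 in replicate 2, 2.93 ± 1.41 (SD, n = 2), the widest spread among the strongest peaks of the 9 loci. After centring on the median of all paired peaks it was 0.88 higher in replicate 2 on the log2 scale, with a 95% interval from counting of 0.64 to 1.11. In replicate 1 it was not the highest of the locus: the intronic peak 78115581 to 78115780 had 1.98 there and 1.82 in replicate 2. The other intronic peaks had 0.972 and 0.786, and 1.49 and 1.01, lower in replicate 2 as well. The 8 peaks of the locus were split evenly, 4 higher and 4 lower after centring, and their median centred log2 ratio was -0.09.

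Slc14a2 encodes UT-A, best known from the kidney's collecting duct (ENSMUSG00000024552.16, 78146148 to 78596942, minus strand). None of its 6 annotated start sites had a peak within 1 kb in either library, and no stretch with a cut-rate false discovery rate under 0.05 was listed there. Its long locus held 19 peaks in replicate 1 and 22 in replicate 2, 0.404 and 0.467 per 10 kb, below the medians of all protein-coding loci. These include the intronic Slc14a1 peak 78138361 to 78138560, which lies in the flank of Slc14a2. Of 15 shared peaks in the gene body, 7 lay between 78212830 and 78256160, a stretch of 43.3 kb that begins 3736 bp upstream of the start site of Slc14a2-201. They held 59.0% and 51.7% of the signal of the shared peaks in the body. This stretch was picked after its values were seen. The strongest of the 7, 78237381 to 78237640, had 2.00 and 1.47.

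The intronic Slc14a2 peak 78161461 to 78161640 had 0.887 in replicate 1 and 1.86 in replicate 2, a centred log2 ratio of 0.92 with a counting interval of 0.58 to 1.27. It had 4 footprints in each library, against a median of 2 and 3 in peaks within 10% of its signal. The peak 78237821 to 78238020 had 1.38 and 0.751, a centred log2 ratio of -1.02 with an interval of -1.42 to -0.64. Introns of the same gene thus held peaks higher and peaks lower in replicate 2.

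Aqp4, the water channel of astrocytes and of some epithelia and muscle fibres (ENSMUSG00000024411.10, chromosome 18, 15389496 to 15410982, minus strand), had the lowest summed peak signal of the 9 loci, 0.426 in replicate 1 and 0.786 in replicate 2. Its peak density was the lowest in replicate 1 only. In replicate 2 its 0.482 peaks per 10 kb were above the 0.467 of Slc14a2. The start site of its main transcripts, at 15410982, had no peak within 1 kb in either library. A peak 985 bp from an internal start site was called in replicate 2 only, with a signal of 0.283. The only shared peak was intronic, 15401041 to 15401260, at 0.426 and 0.504, 0.465 ± 0.0547 (SD, n = 2), and was stronger than only 13.7% and 27.8% of the peaks of the libraries.

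Between the replicates, most peaks of these loci recurred, and those that did not were weak. The loci held 63 distinct peaks in replicate 1 and 74 in replicate 2. Of these, 54 (85.7%) overlapped a peak of replicate 2 and 53 (71.6%) a peak of replicate 1, against 86% and 66.5% over all protein-coding loci. The 10 peaks left without a partner in replicate 1 had signals of 0.341 to 0.878 and the 21 in replicate 2 had 0.283 to 1.105, with 1 of each above its library's median. Of the peaks, 36 and 42 (57.1% and 56.8%) were also in the shorter deposited lists, against 59.99% and 61.5% of all peaks.

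The 53 paired peaks were compared by the log2 ratio of replicate 2 over replicate 1, centred on the median of 0.14 over all 70427 pairs. Their median was -0.17, and -0.03 before centring. After centring 2 pairs were more than 1.5-fold higher in replicate 2, where 15.2% of all pairs were, and 9 were more than 1.5-fold lower, where 7.3% of all pairs were. The 2 higher pairs were the intronic peaks of Slc14a1 and Slc14a2 named above. The lowest ratio was that of the peak upstream of Atp1b1, 164461801 to 164462080, with 1.11 and 0.548 and a centred log2 ratio of -1.16. Own promoter peaks were higher after centring in 6 of 11 cases, and intronic peaks in 6 of 28. Of these intronic peaks 14 lay in Slc14a2. The shares over all promoter pairs and all intronic pairs were not computed, so whether this split is particular to these loci was not tested. Counting alone gave an interval that left out 0 in 19 of the 53 pairs, where 44% of all pairs had such an interval. With 1 library on each side no test between replicates was possible.

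**Figure D3:**
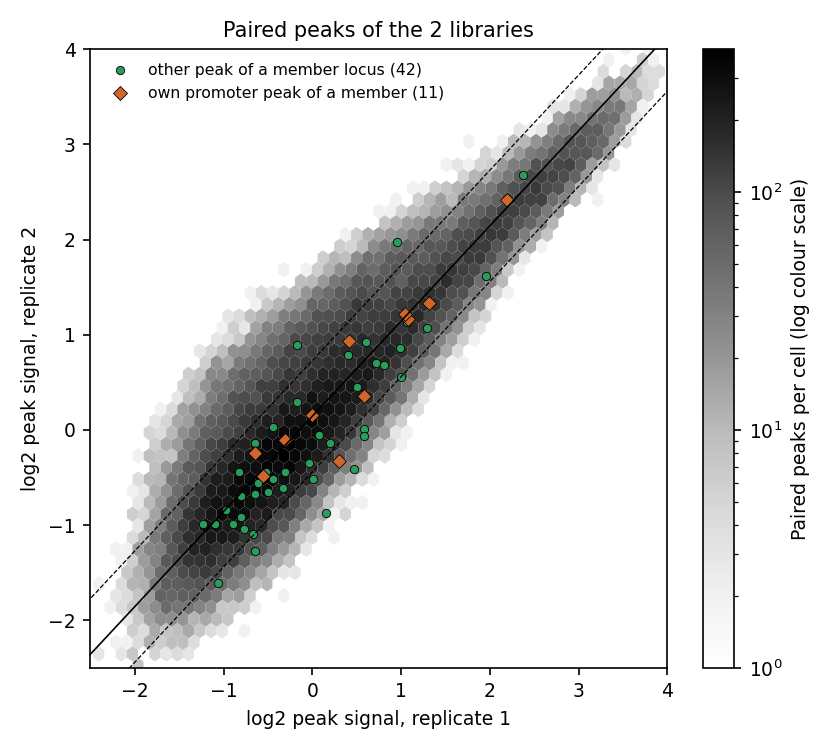
Signal of paired peaks in replicate 1 (x axis, log2) and replicate 2 (y axis, log2), with all 70427 pairs as grey cells, 11 own promoter peaks of the 9 genes as diamonds and the other 42 peaks of their loci as circles. The solid line is the median ratio of all pairs and the dashed lines are 1.5-fold on either side. Of the marked peaks, 42 lie within the dashed lines, 2 above and 9 below.

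Footprints were present in 54 of the 63 peaks in replicate 1 (85.7%) and 59 of 74 in replicate 2 (79.7%), against 76.9% and 76.1% of all peaks. The peaks held 114 and 143 footprints, 8.94 and 9.51 per kb of peak, 9.22 on average, against 9.87 and 9.73 over all peaks. In the 200 bp windows of the 53 pairs, 52.4% of the footprint bases of replicate 1 were also in a footprint of replicate 2, and 43.9% the other way, against 60.3% and 48.3% over all pairs. In own promoters these shares were 57.2% and 50.8%. The Scnn1g promoter had 5 and 6 footprints and the Aqp4 intronic peak 0 and 2.

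**Figure D4:**
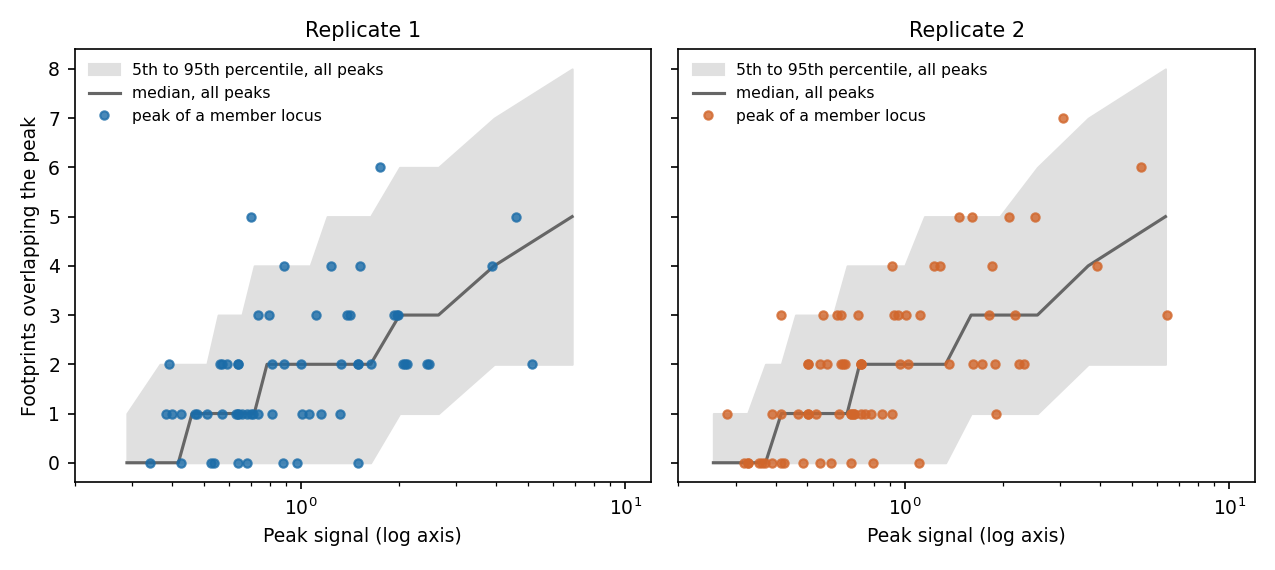
Number of footprints overlapping each peak of the 9 loci (points) against its signal on a log axis, in replicate 1 and replicate 2. The grey line and band give the median and the 5th to 95th percentile of all peaks of the library in 20 groups of equal size. The strongest Scnn1a peak, at 5.17 and 6.42, lies below the median line with 2 and 3 footprints.

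Short motifs were searched on both strands in the 200 bp windows of the 53 shared peaks. The GC box of KLF and SP factors, GGGGCGG, was in 10 windows (18.9%), against 12.3% and 9.75% of all peak windows in replicates 1 and 2. Of these 10, 7 were own promoters, in Aqp1, Aqp3, Scnn1g and Atp1b1, and 3 had a match wholly inside footprints of both libraries: the Scnn1g promoter, the Scnn1a exon and the promoter of Ltbr. The NFI motif part TTGGCA was in 13 windows (24.5%), against 14.6% and 16.3%. Of those, 9 were intronic, all in Slc14a2 apart from the Aqp3 intron, so this share rests largely on 1 gene. The AP-1 motif TGANTCA was in 10 (18.9%), against 14.8% and 14.0%, and the GATA motif AGATAA in 1 (1.89%), against 7.80% and 8.34%. The motif part TGGAAA shared by NFAT factors and the tonicity factor NFAT5 was in 11 (20.8%), against 15.8% and 17.2%. The 53 windows share loci, and 15 of them lie in the body of Slc14a2, so these shares are a description.

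RefSeq promoter windows of 300 bases on GRCm38.p6 were matched by symbol for 5 of the 9 genes. GC content was 71.0% for Atp1b1, 64.7% for Scnn1g, 64.0% for Aqp3, 62.7% for Aqp1 and 61.7% for Scnn1b, each above the median of 52.7% over 32851 windows. The ratio of observed to expected CpG was 0.821 for Atp1b1, 0.711 for Aqp3, 0.592 for Scnn1g, 0.352 for Scnn1b and 0.278 for Aqp1, against a median of 0.384. Scnn1b and Aqp1, lowest in this ratio, were also the lowest of these 5 in promoter signal. Among the others this order did not hold. Scnn1g, lowest of them in the ratio, had the highest mean signal, 4.97, against 2.19 for Atp1b1. Aqp3 had 2.18 at its protein-coding start, where the RefSeq window lies. The GC box was in 3 of the 5 windows, those of Aqp3, Atp1b1 and Scnn1g, and in 23.2% of all windows.

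Promoter peaks were also counted in 7 lists of related genes, 68 in all. Of these, 52 had one in replicate 1 and 56 in replicate 2 (76.5% and 82.4%). Among 9 other aquaporins 3 and 5 had a promoter peak. Aqp11, an intracellular aquaporin, had 2.49 ± 0.468 (SD, n = 2) and Aqp5, of glands and lung, 0.938 ± 0.0359, while Mip and Aqp2, the vasopressin-regulated channel of the collecting duct, had none. Aqp3 was thus matched by Aqp11 within the spread and stood above the other aquaporins listed.

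Among 7 other Na,K-ATPase subunits 5 and 4 had a promoter peak. Atp1b3, encoding the beta 3 subunit, had 11.1 ± 0.224 (SD, n = 2), above the 2.19 ± 0.190 of Atp1b1. Atp1a4 and Atp1b4 had none. Of 7 FXYD regulators of the pump 5 and 6 had one, led by Fxyd1 at 2.63 ± 0.207 and Fxyd3 at 2.30 ± 0.0149, with none at Fxyd7.

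Of 18 genes that regulate ENaC, replicate 1 had a promoter peak at 17 and replicate 2 at 18. Oxsr1, a kinase of the WNK pathway, had 11.3 ± 1.48 (SD, n = 2) and Usp2, a deubiquitinase that acts on ENaC, 10.3 ± 1.14. Hsd11b2 was the gene with a peak in replicate 2 only, at 0.733. Of 5 acid-sensing channels of the same superfamily 3 and 4 had one, led by Asic1 at 1.33 ± 0.279 and Asic3 at 1.05 ± 0.382, with none at Asic4.

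Of 12 sodium-coupled carriers and their adaptor 11 had a promoter peak in each library. Slc9a3r1, a scaffold of sodium-proton exchange, had 9.88 ± 0.642 (SD, n = 2) and Slc12a7, a potassium-chloride cotransporter, 5.004 ± 0.0464, while Slc12a1, the cotransporter of the kidney's thick ascending limb, had none. Of 10 genes of osmolytes and the response to tonicity 8 had one in each library. Nfat5, the tonicity-responsive transcription factor, had 7.44 ± 0.464 and Slc6a6, the taurine carrier, 4.78 ± 0.145. The betaine carrier gene Slc6a12 and Avpr2, the renal vasopressin receptor gene, had none.

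**Figure D5:**
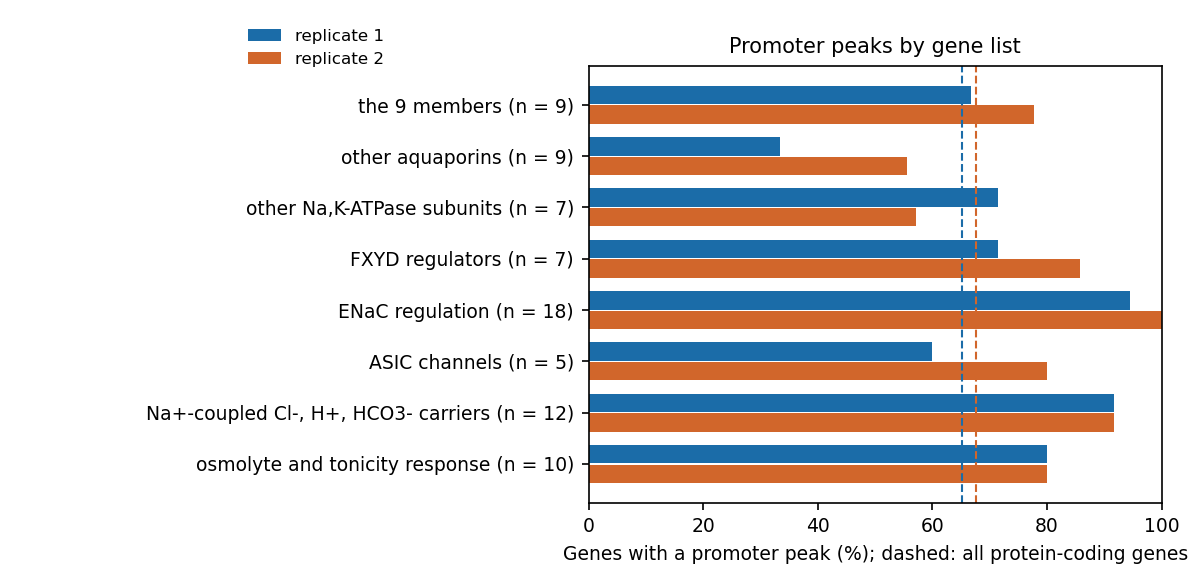
Share of genes with a promoter peak (%) in replicate 1 (blue bars) and replicate 2 (orange bars) for the 9 transport genes and the 7 related lists, with the number of genes in brackets. Dashed lines are the shares over all protein-coding genes, 65.2% and 67.6%. The other aquaporins lie below both lines, at 33.3% and 55.6%, and genes of ENaC regulation lie highest, at 94.4% and 100%.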

How the data were processed

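DNase-seq of urinary bladder was available as peak lists, footprints and cut-rate stretches for each of 2 libraries. Files were made per library on mm10, per the deposited file listing, and none was pooled. Which aligner and caller were run is not given in the sources used here. The peak value used is a signal that the authors deposited per peak. For 100% of peaks it falls on whole steps of 1 size per library, within a tolerance of 0.02 steps. What 1 step stands for, and whether the value is a height or a sum, is not stated, so depth is unknown beyond these steps. The cut-rate false discovery rate, on the p-value scale, was deposited for stretches under 0.05. The deposited footprints have 0.01, on the p-value scale, in each row and could not be ranked. Each library has a longer peak list, used here, and a shorter one.

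The 9 genes, the related lists and the markers were chosen with earlier results of these data known. Genes and start sites came from GENCODE M21, and sequence from GRCm38.p6, in which 2000 of 2000 RefSeq promoter rows checked were identical to the genome. A promoter peak lies within 1 kb of a start site. An overlap of 1 bp or more made peaks shared, and peaks were paired 1 to 1 by the largest mutual overlap. The pairing was tested on simulated data. Log2 ratios were centred on the median of all pairs. Values are means and SD over n = 2, or both values. With 1 group no p-value was computed. All 9 genes are named, and of each related list the 2 genes highest in mean promoter signal and at most 2 with no promoter peak in either library, in list order. A gene that this rule takes is not reported here. Genes whose promoter lies in a locus are named as neighbours. Sequences printed are the strongest own promoter peaks and the strongest shared peaks outside promoters, apart from those of 1 chromosome, which are not reported here, and 2 peaks of the Scnn1a locus. The 2 further Aqp3 sequences and Hsd11b2 were chosen after their values were seen. Alternatives covered promoter and locus width, transcript type, overlap, centring, neighbouring genes, the shorter list and each library alone. Numbers of peaks made equal were added after seeing the data. Python 3.11.15, numpy 2.4.6, pandas 2.3.3, scipy 1.17.1 and matplotlib 3.10.9 were used.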

Additional observations from a re-analysis of the deposited data

How the results depend on the processing

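Of 35 alternative values of the 6 summary results, 32 stayed within a set limit. This was 1.5 times for counts and the replicate SD for shares and footprints. For the log2 ratio of the replicates it was the SD of 0.496 over all pairs, wide beside the main value of -0.17. Footprints per kb with each library alone could not pass their limit, so these values say nothing of stability. The log2 ratio, the only summary result that could change sign, stayed negative. The number of peaks in the 9 loci, 68.5 on average over the libraries, became 128 with 50 kb flanks and 39 with the shorter peak list. Footprints per kb of peak became 13.1 with the shorter list, in place of 9.22. With each library alone, the genes with a promoter peak numbered 6 to 7, the related genes with one 52 to 56, the peaks of the loci 63 to 74, and the footprints per kb 8.94 to 9.51. With a 2 kb promoter, 8 of the 9 genes had a promoter peak on average, since the upstream Scnn1a peak then counted, at 1.03, and the intronic Aqp4 peak, at 0.465. With a narrower promoter window the value of Slc14a1 was 1.06, below the 1.39 of Scnn1b, and with protein-coding transcripts alone Aqp3, at 2.18, stood below Atp1b1, at 2.19. Of 90 values of single genes under alternatives 18 moved. With as many peaks in each library, 82.1% of the locus peaks were shared on average, against 78.7%. No paired analysis was possible because the 2 libraries belong to 1 group. The precision of weak peaks is limited by counts, which were as low as 40 steps in replicate 1 and 32 in replicate 2, and how many animals the libraries stand for is unknown.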

Other observations

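Some further genes were looked up after the values had been seen. Nr3c2, the mineralocorticoid receptor gene through which aldosterone acts on ENaC, had a promoter signal of 7.99 in replicate 1 and 6.59 in replicate 2, 7.29 ± 0.988 (SD, n = 2). Sgk1, an aldosterone-induced kinase that raises ENaC at the membrane, had 6.71 and 7.57, with 10 and 11 peaks within 1 kb of its start sites. Hsd11b2, the enzyme that keeps cortisol-like steroids from the mineralocorticoid receptor, had no promoter peak in replicate 1 and 0.733 in replicate 2. Prss8, a protease that activates ENaC, had 2.22 and 2.23, nearly the same value in each library. Avpr1a, a vascular vasopressin receptor gene, had 0.802 and 2.11, 1.46 ± 0.927, a wide spread.

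The Slc14a2 peak 78431261 to 78431600 was called in replicate 1 only, at 0.699, and held 5 footprints. Peaks of that library within 10% of its signal had a median of 1 footprint and a 95th percentile of 4. They were not matched for width, and this peak was 340 bp wide, against a library median of 199 bp.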
